A study of Mus musculus with 6 samples.

Results

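The oligodendrocyte lineage was followed through 9 genes in cultured mouse ependymal cells with and without Edf1: the precursor genes Olig1, Olig2, Sox10, Pdgfra and Nkx2-2, and the myelin genes Mbp, Mag, Mog and Cnp. They were chosen by name, with earlier results of these data known, and all 9 were found among the 22851 gene symbols of the deposited count table. The libraries came from radial glial cells, the progenitors that line the ventricles, taken from brains of C57BL/6J mice at postnatal day 0 to 3. The cells were grown in medium with 10% fetal bovine serum and then kept without serum for 6 days, which turns them into multiciliated ependymal cells. The 2 groups were wild-type (WT) cells and cells from Edf1 knockout (KO) mice made with CRISPR/Cas9, with 3 libraries each. The design text calls the replicates biological, and the labels do not say how many mice or which brain region went into a culture. Edf1 encodes a small transcriptional coactivator that also binds collided ribosomes.

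Oligodendrocytes are the cells that wrap axons of the brain in myelin. They arise from progenitors that express the transcription factors Olig1 and Olig2, pass through a dividing precursor stage marked by Sox10 and by Pdgfra, the receptor for platelet-derived growth factor A, and then switch on myelin genes under Sox10, Nkx2-2 and Myrf. Several of these genes are not private to the lineage. Olig1 and Olig2 are also expressed in neural progenitors and some astrocytes, Pdgfra in meningeal fibroblasts, and Cnp at lower levels in many cell types.

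Sequencing depth was 13071766 to 28087006 counts per library, with the lowest total in WT replicate 2, and 3 counts corresponded to 0.107 to 0.230 CPM, counts scaled to a common library total. Edf1 itself had 82.6, 85.8 and 80.1 CPM in the WT and 9.83, 10.9 and 13.2 CPM in the KO libraries, a fall of 2.85 on the log2 scale, so the libraries matched their labels. Markers of the labelled cell type were present: Foxj1, the regulator of motile cilia, had 788 ± 43.4 CPM in WT and 523 ± 10.3 CPM in KO (SD, n = 3 each). Between the genotypes, 26.9% of the 14243 tested genes were called by edgeR's quasi-likelihood test at an adjusted p-value under 0.05, with 12.7% higher and 14.2% lower in KO. The groups did not overlap for 43.3% of the tested genes.

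Sequences before a transcript start are shown for both members that changed, Nkx2-2 and Cnp, and for Pdgfra, which holds the same motif letters as Nkx2-2 but was not called. Each is the stretch of the 250 bases before a RefSeq transcript start (GRCm38.p6) that lies outside the gene's annotated exons, 5′ to 3′ on the gene's strand. Capitals mark the E-box CAGATG, a form bound by Olig2 and related factors, or the Sox-type motif ACAAAG, each searched on both strands. The RefSeq start used for Nkx2-2 lies inside the gene, 7.84 kb from the gene start in GENCODE M21, so its stretch is intronic to the longest annotated form. The Nkx2-2 stretch is chr2:147186456-147186652 on the minus strand, the Pdgfra stretch chr5:75152001-75152250 on the plus strand and the Cnp stretch chr11:100574689-100574903 on the plus strand.
Nkx2-2: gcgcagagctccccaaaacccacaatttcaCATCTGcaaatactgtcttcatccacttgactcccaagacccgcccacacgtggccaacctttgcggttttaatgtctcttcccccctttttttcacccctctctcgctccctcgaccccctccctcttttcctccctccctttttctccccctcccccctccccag
Pdgfra: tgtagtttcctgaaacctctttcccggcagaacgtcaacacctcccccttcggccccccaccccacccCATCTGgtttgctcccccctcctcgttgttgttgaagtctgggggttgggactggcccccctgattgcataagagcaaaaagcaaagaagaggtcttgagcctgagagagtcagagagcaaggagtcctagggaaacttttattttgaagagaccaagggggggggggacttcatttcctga
Cnp: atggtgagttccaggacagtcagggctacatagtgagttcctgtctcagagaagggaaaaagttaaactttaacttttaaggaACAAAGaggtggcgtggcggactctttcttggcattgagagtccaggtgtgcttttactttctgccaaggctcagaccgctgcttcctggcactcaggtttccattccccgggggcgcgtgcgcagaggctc
The E-box letters lie 220 bases before this internal start of Nkx2-2 and 182 before the start of Pdgfra, both printed as the complement CATCTG, and the Sox-type letters lie 167 before that of Cnp. CAGATG occurs in 14.4% of all 32851 windows of 250 bases and ACAAAG in 16.5%. RefSeq windows existed for 6 members, 8 in all: CAGATG was in 2 of them, ACAAAG in 3 (those of Cnp and 2 of Mag), ACAATG in 1 (Olig2, against 10.7% of all windows) and CAGCTG in 0 (against 13%). Those 2 Mag windows overlap and hold the same ACAAAG site, so they are not separate matches. These matches describe letters only, and the member that rose and a member that was not called share the same E-box.

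Per kilobase of exon, the members spanned a wide range of levels. In WT, Cnp stood highest at 96.2 ± 5.68 CPM per kb, followed by Olig1 at 30.3 ± 1.55 and Olig2 at 12.1 ± 0.736 CPM per kb (SD, n = 3). Nkx2-2 at 2.29 ± 0.0457 and Pdgfra at 1.20 ± 0.0696 CPM per kb came next. Mbp, Mag, Sox10 and Mog lay at 0.352, 0.228, 0.178 and 0.0432 CPM per kb. The ranges of neighbours in this order overlapped for Mbp with Mag and for Mag with Sox10, so these 3 could not be ranked in WT, and all other neighbours were separated in the WT libraries. In KO the order was the same, and the ranges overlapped for Mag with Sox10 and for Sox10 with Mog.

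The early regulators Olig1 and Olig2 were well measured and were not called. They encode related basic helix-loop-helix factors and lie 41.1 kb apart on chromosome 16 (Olig2 at chr16:91225457-91228677, Olig1 at chr16:91269772-91271933, GRCm38). Olig1 had 68.5, 65.9 and 61.9 CPM in WT replicates 1, 2 and 3 and 67.1, 73.6 and 73.0 CPM in KO replicates 1, 2 and 3. The KO libraries lay toward the top of the WT range and above it, and the groups overlapped through KO replicate 1. The log2 fold change was 0.12 (SE 0.062, edgeR adjusted p-value 0.169), with a 95% interval of -0.012 to 0.26, so the data leave room for a rise of up to 1.20-fold. Olig2, the factor required for the lineage, had 32.5, 28.7 and 30.7 CPM in WT and 31.6, 38.4 and 29.2 CPM in KO. Only KO replicate 2 lay above the WT range. The log2 fold change was 0.099 (SE 0.099, edgeR adjusted p-value 0.50, 95% interval -0.12 to 0.31), and without KO replicate 2 it was -0.019.

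Nkx2-2 was the precursor member that rose. It encodes a homeodomain factor that marks ventral progenitors in response to hedgehog signalling and later takes part in oligodendrocyte differentiation, and it lies at chr2:147177546-147194243. Its levels were 6.63, 6.68 and 6.43 CPM in WT and 9.53, 10.1 and 9.80 CPM in KO. Both groups were tight and did not overlap. The KO level was 1.49-fold that of WT (95% interval 1.26 to 1.77), or 0.58 on the log2 scale (SE 0.11, edgeR adjusted p-value 0.00208). The call held in all 13 alternatives, with log2 fold changes of 0.56 to 0.60 and adjusted p-values of 0.00105 to 0.0120. Exons of the antisense gene Nkx2-2os cover 9.7% of the Nkx2-2 exons, and since the strand setting of the counting is not given in the sources used here, reads of both cannot be told apart in that stretch.

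Pdgfra, the receptor that drives precursor division, had 12.4, 11.3 and 12.5 CPM in WT and 12.1, 12.3 and 10.1 CPM in KO (chr5:75152292-75198215). The groups overlapped, with the lowest value in KO replicate 3. The log2 fold change was -0.091 (SE 0.11, edgeR adjusted p-value 0.584, 95% interval -0.33 to 0.15), and it was 0.010 without KO replicate 3. Its ligand gene Pdgfa also showed no call, with 26.6 ± 0.578 CPM in WT and 27.5 ± 1.87 CPM in KO. Fibroblast and mural markers, among them Pdgfrb and the collagen genes, rose in the same KO libraries. Of 14 tested, 12 were called higher (85.7%, against 12.7% of all tested genes) and 0 lower. Their summed level was 871 to 936 CPM in WT and 1090 to 1211 CPM in KO. Most of that sum came from Acta2 (475 CPM in WT, 586 CPM in KO) and Tagln (288 and 331 CPM). Pdgfrb had 34.8 CPM in WT and 46.8 CPM in KO. The part of fibroblast and mural cells in the Pdgfra level was not tested.

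Sox10, the factor that commits precursors to the lineage, was close to the limit of detection. It had 20, 5 and 9 counts in WT and 5, 7 and 16 counts in KO, which is 0.753, 0.388 and 0.486 CPM and 0.307, 0.390 and 0.566 CPM (chr15:79154908-79165240). The groups overlapped, and the gene did not pass the filter on low counts. Without that filter its log2 fold change was -0.37 (SE 0.50, edgeR adjusted p-value 0.650), so no difference was detectable at this depth.

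**Figure D1:**
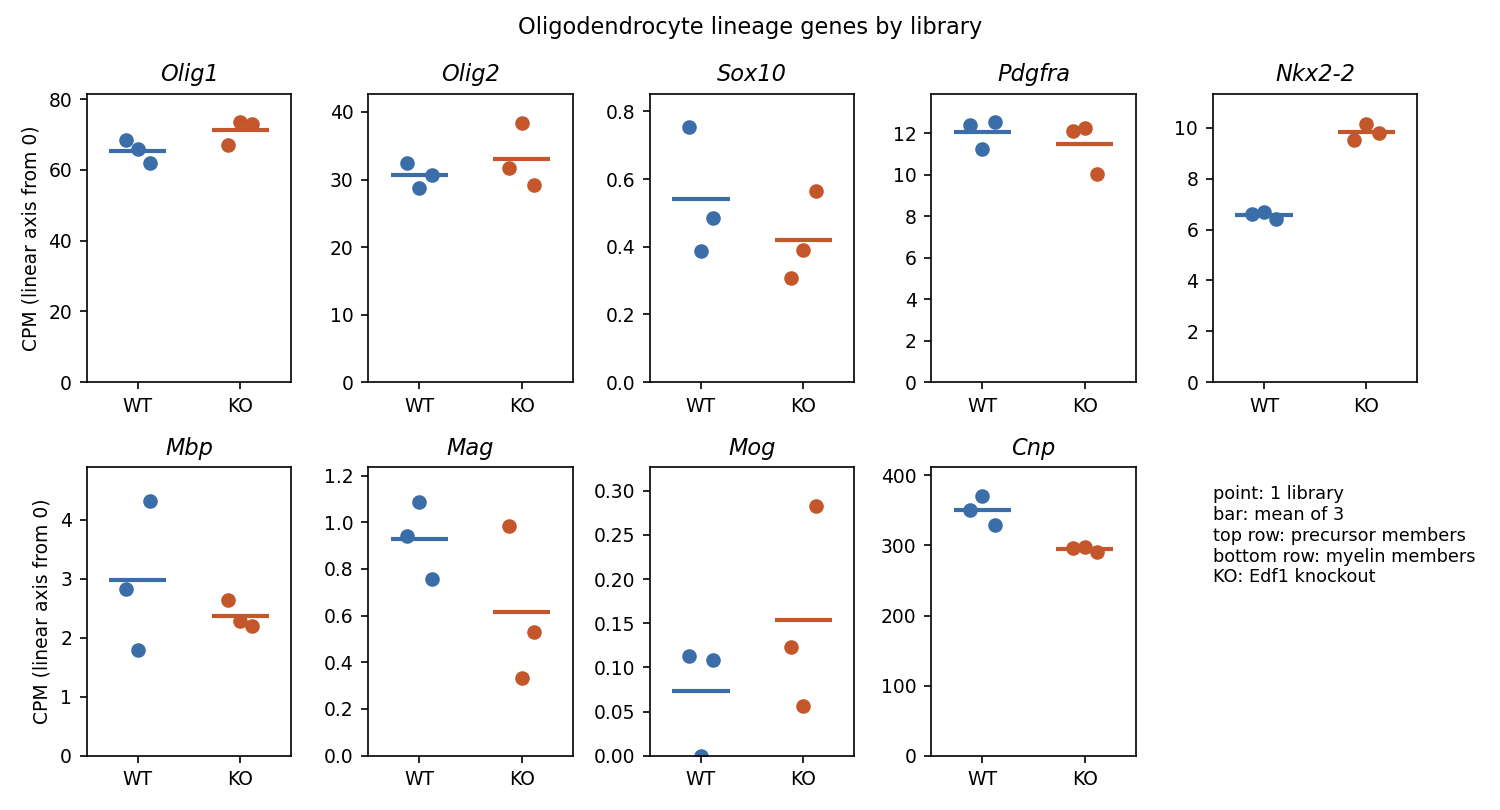
CPM of the 9 members in each library (points, in the order of replicates 1 to 3) with the mean of 3 libraries (bars), each panel on its own linear axis from 0. Nkx2-2 (WT at most 6.68, KO at least 9.53 CPM) and Cnp (WT at least 329, KO at most 298 CPM) are the panels without overlap between the genotypes.

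Among the myelin genes, Cnp fell and the other 3 were scarce. Cnp encodes an enzyme of the cytoplasm-filled parts of the myelin sheath and lies at chr11:100574904-100591729. It had 351, 371 and 329 CPM in WT and 296, 298 and 291 CPM in KO. Every KO library lay below every WT library. The KO level was 0.843-fold that of WT (95% interval 0.781 to 0.910), or -0.25 on the log2 scale (SE 0.051, edgeR adjusted p-value 0.00321). The call held in all 13 alternatives, with log2 fold changes of -0.29 to -0.21 and adjusted p-values of 0.000201 to 0.0218. Exons of Dnajc7 on the opposite strand cover 4.2% of the Cnp exons, and Dnajc7 was not called (256 ± 1.08 CPM in WT, 265 ± 5.74 CPM in KO).

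In these bulk libraries, fewer cells of a type and less RNA per cell cannot be told apart. Beside the fall of Cnp, all 16 ependymal markers tested were called lower in KO, against 14.2% of all tested genes. Their median log2 fold change was -1.01, and their summed level was 2676 to 2979 CPM in WT and 1490 to 1614 CPM in KO. Microglia markers also fell (12 of 14 tested, 85.7%, median -0.62), and their sum was 2485 to 2644 CPM in WT and 1653 to 1709 CPM in KO. The part of either cell type in the Cnp level was not tested.

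Mbp, which encodes the protein that compacts the myelin membrane, had 75, 23 and 80 counts in WT and 43, 41 and 62 counts in KO. These are 2.82, 1.79 and 4.32 CPM and 2.64, 2.28 and 2.19 CPM (gene on chromosome 18). The WT libraries spanned more than the whole KO range. The log2 fold change was -0.37 (SE 0.27, edgeR adjusted p-value 0.352, 95% interval -0.96 to 0.22), and it ran from -0.58 to -0.028 as each library was left out, the latter without WT replicate 3. The Mbp locus also makes transcripts outside the lineage, and the table gives 1 value for the gene.

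Mag, a surface protein of the inner myelin layer that faces the axon, had 25, 14 and 14 counts in WT and 16, 6 and 15 counts in KO (chr7:30899176-30914873). Its levels were 0.941, 1.09 and 0.756 CPM and 0.983, 0.334 and 0.531 CPM, with the groups overlapping through KO replicate 1. The log2 fold change was -0.61 (SE 0.40, edgeR adjusted p-value 0.281), and its 95% interval of -1.47 to 0.24 covers both a large fall and a small rise. Mog, an outer surface protein of mature myelin, had 3, 0 and 2 counts in WT and 2, 1 and 8 counts in KO (chr17:37010743-37023398). The count was at or under 3 in 5 of 6 libraries, so it did not pass the filter on low counts. Without that filter its log2 fold change was 0.96 (SE 0.96, edgeR adjusted p-value 0.547), so no difference was detectable at this depth.

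Of the 9 members, 7 passed the filter, and 2 of these were called (28.6%, against 26.9% of all tested genes). That share is near the background, so a count of called members says nothing particular about the lineage. Nkx2-2 and Cnp differed between the genotypes by more than the spread between replicates, and the remaining 5 tested members had intervals that include 0.

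**Figure D2:**
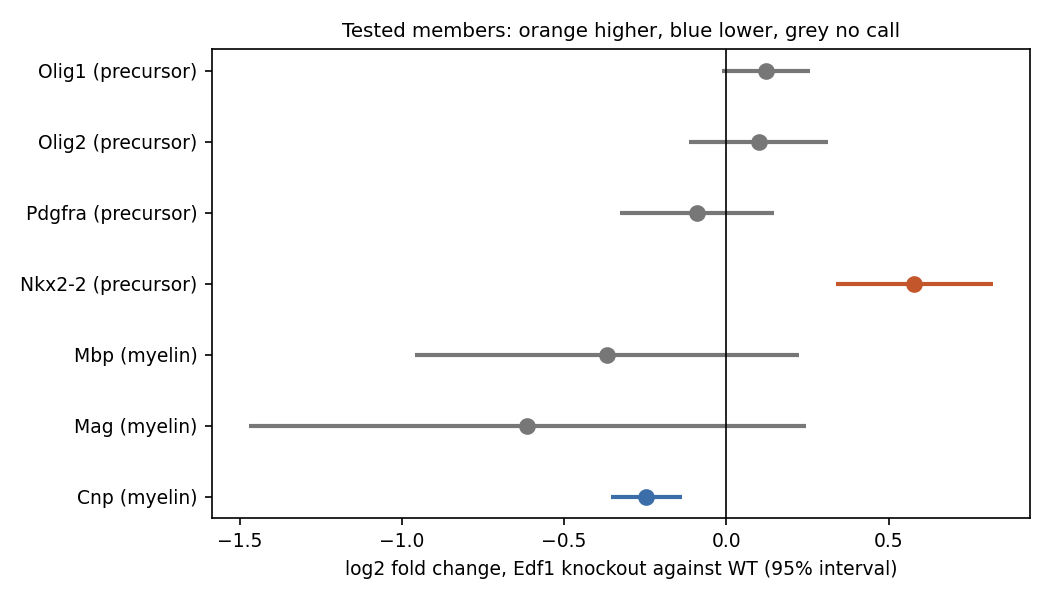
Log2 fold change of the 7 tested members, Edf1 knockout against WT (points), with 95% intervals (lines). Nkx2-2 at 0.58 and Cnp at -0.25 have intervals clear of 0, and those of the low genes Mbp and Mag are the widest.

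Precursor and myelin members were then contrasted within each library. The mean log2 CPM over all 5 precursor members was 3.46, 3.23 and 3.30 in WT and 3.33, 3.48 and 3.43 in KO. The mean over all 4 myelin members was 1.96, 1.59 and 2.004 in WT and 1.90, 1.40 and 1.83 in KO. Both ranges overlapped between the genotypes. The myelin mean minus the precursor mean was -1.48 ± 0.17 in WT and -1.70 ± 0.35 in KO (SD, n = 3), a difference of -0.23 that is smaller than the spread between the KO libraries. It was -0.030 without KO replicate 2, the library with the lowest Mag count, -0.13 without WT replicate 3 and -0.36 without KO replicate 1. It was -0.12 with a prior count of 0.5 and -0.45 when Mog, the member under 10 counts in both groups, was left out. The myelin mean alone differed by -0.14, and by 0.019 without KO replicate 2. No test was made over the members, which share libraries and are not replicates.

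On the linear scale the myelin members were almost wholly Cnp, which made up 98.4% to 99.2% of their summed CPM. The sum without Cnp was 3.88, 2.87 and 5.19 CPM in WT and 3.75, 2.67 and 3.01 CPM in KO, with overlap. The precursor sum was 112 to 121 CPM in WT and 121 to 135 CPM in KO. The summed level of the myelin members therefore describes Cnp and little else.

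**Figure D3:**
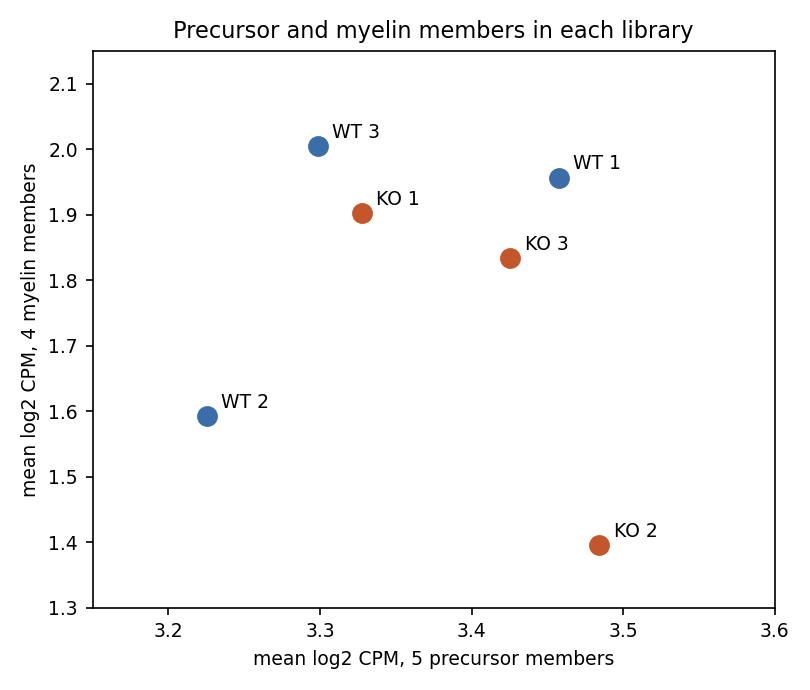
Mean log2 CPM of the 5 precursor members (horizontal) and of the 4 myelin members (vertical) in each of the 6 libraries, labelled by genotype and replicate. The genotypes intermix except for KO replicate 2, which has the highest precursor mean (3.48) and the lowest myelin mean (1.40).

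Other genes of the precursor stage changed in both directions. Of 25 listed, 21 were tested, 6 were called higher and 4 lower (47.6%, against 26.9% of all tested genes), with a median log2 fold change of 0.11 against 0.0029 over all tested genes. Cspg4, the NG2 proteoglycan of precursors and pericytes, rose from 9.15 ± 0.693 to 11.9 ± 0.871 CPM (log2 fold change 0.38, adjusted p-value 0.0224 by edgeR), and it is also on the fibroblast and mural list. Megf11 rose most, from 16.1 ± 1.48 to 37.5 ± 2.56 CPM (1.22, adjusted p-value 1.26e-06 by edgeR), and the transcription factor gene Sox5 rose from 11.2 ± 0.998 to 15.0 ± 1.03 CPM (0.41). The falls were led by Tnr, a matrix glycoprotein gene, from 4.05 ± 0.751 to 1.501 ± 0.171 CPM (-1.43, adjusted p-value 0.000371 by edgeR), by Cacng4, a regulatory subunit of glutamate receptors, from 19.4 ± 0.285 to 9.62 ± 0.162 CPM (-1.01), and by Lhfpl3, from 11.3 ± 0.648 to 8.15 ± 0.398 CPM (-0.47). Gpr17, a receptor of cells about to differentiate, had 10, 2 and 4 counts in WT and 2, 4 and 4 counts in KO and was not tested. The number called higher fell from 6 to 2 without KO replicate 1, to 3 without KO replicate 2 and to 2 without KO replicate 3. Cspg4 lost its call without WT replicate 3 (0.33, adjusted p-value 0.0701 by edgeR), KO replicate 1 (0.36, 0.0754) or KO replicate 3 (0.34, 0.0995), and Sox5 without KO replicate 3 (0.37, 0.0569).

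Among further myelin genes, Mobp and Opalin, which mark mature oligodendrocytes, had 0 counts in all 6 libraries, which allows up to 0.230 CPM in the shallowest. Only 19 of the 29 listed genes were high enough to test. Of these 19 genes, 1 was called higher and 4 lower, 26.3% in all against 26.9% of all tested genes, with a median of -0.0058. The genes that changed are also expressed outside the lineage. Trf, which encodes transferrin, fell from 151 ± 2.82 to 101 ± 1.69 CPM (-0.58, adjusted p-value 3.90e-06 by edgeR). Mal fell from 8.59 ± 0.637 to 6.11 ± 0.410 CPM (-0.47) and Plekhb1 from 273 ± 17.1 to 239 ± 3.51 CPM (-0.19). Apod, a lipid carrier also made by fibroblasts, had 4.28 ± 1.15 CPM in WT and 8.83 ± 4.99 CPM in KO (0.99, adjusted p-value 0.0397 by edgeR).

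Some of these myelin calls lay near the threshold, and the Apod value rested on 1 library. Apod was not called without KO replicate 2 (0.44, adjusted p-value 0.171 by edgeR) or WT replicate 1 (1.02, 0.0851), by DESeq2 (1.04, 0.117) or by limma voom (0.82, 0.0838). Mal lost its call without KO replicate 1 (-0.45, 0.0531) or KO replicate 2 (-0.44, 0.0540). Plekhb1 lost it without WT replicate 1 (-0.18, 0.0631) or any 1 of the KO libraries (-0.20 to -0.18, 0.0545 to 0.0783). The number called lower was 2 without WT replicate 1, 1 without KO replicate 1, and 2 without either KO replicate 2 or KO replicate 3. The number called higher was 0 without WT replicate 1 or KO replicate 2 and 2 without WT replicate 2.

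Regulators of the lineage were called at a share near the background. Of 30 listed, 29 were in the table and 23 were tested, with 1 called higher, 4 lower (21.7%, against 26.9% of all tested genes) and a median of 0.0016. Myrf, the switch for myelin genes, had 12, 6 and 4 counts in WT and 8, 11 and 9 counts in KO and was not tested. Prrx1, a homeobox gene also expressed in mesenchyme, rose from 19.3 ± 1.34 to 27.1 ± 2.11 CPM (0.49, adjusted p-value 0.00133 by edgeR). Sox3, a progenitor factor, fell from 6.65 ± 1.57 to 3.77 ± 0.148 CPM (-0.79, adjusted p-value 0.00797 by edgeR). Id2 and Id4, inhibitors of basic helix-loop-helix factors such as Olig1 and Olig2, fell by 0.25 and 0.20 on the log2 scale (adjusted p-values 0.00726 and 0.0360 by edgeR). The Id4 call was lost without KO replicate 1 (-0.20, 0.0991), KO replicate 2 (-0.17, 0.141) or KO replicate 3 (-0.21, 0.0739), and 2 regulators were called lower in each of these 3 fits. Its value was -0.12 without WT replicate 2 (0.0234). In the fits without WT replicate 2, WT replicate 3 or KO replicate 1, 2 were called higher.

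Signals that act on the lineage changed mainly upward. Of 29 tested genes, 13 were called higher and 3 lower (55.2%, against 26.9% of all tested genes), with a median of 0.35. Among them were genes of the hedgehog pathway, which induces Nkx2-2 and Olig2 in ventral progenitors: Gli1, a transcriptional readout of the pathway, rose from 10.3 ± 0.897 to 33.0 ± 1.87 CPM (1.69, adjusted p-value 1.83e-07 by edgeR). Shh, the ligand gene, rose from 33.1 ± 1.14 to 48.8 ± 1.25 CPM (0.56) and Ptch1, the receptor gene, from 198 ± 32.1 to 318 ± 9.22 CPM (0.67). Smo, of the same pathway, was not called (199 ± 5.38 CPM in WT, 191.5 ± 10.2 CPM in KO). Shh, Ptch1 and Smo were named after their values were seen. The part of the pathway in the Nkx2-2 level was not tested. Bmp4, which encodes a ligand that restrains oligodendrocyte formation, rose from 0.769 ± 0.301 to 3.14 ± 0.208 CPM (2.04, adjusted p-value 0.000167 by edgeR). The cytokine gene Lif had 0.896 ± 0.168 CPM in WT and 1.99 ± 0.408 CPM in KO (1.13, adjusted p-value 0.0120 by edgeR). Lingo1, an inhibitor of myelination, fell from 39.6 ± 1.39 to 27.8 ± 1.57 CPM (-0.51), Igf1, a growth factor that microglia also make, from 54.1 ± 4.30 to 43.7 ± 0.915 CPM (-0.31), and Thra, a thyroid hormone receptor gene, from 331 ± 16.7 to 292 ± 4.59 CPM (-0.18, adjusted p-value 0.0163 by edgeR). Lif lost its call without WT replicate 1 (0.98, 0.0633), KO replicate 1 (1.03, 0.0509) or KO replicate 2 (1.05, 0.0520). Thra lost it without WT replicate 1 (-0.18, 0.0536), KO replicate 1 (-0.17, 0.0831) or KO replicate 3 (-0.18, 0.0636).

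Markers of cells that share genes with the lineage were examined in the same fit. Schwann and neural crest genes, which share Sox10, had 9 of 13 tested, with 5 called higher and 1 lower (66.7%, against 26.9% of all tested genes). The genes called higher were Dhh (log2 fold change 1.57, 0.769 CPM in WT), Ngfr (1.55, 0.336 CPM in WT), Cdh19 (0.63), Prx (0.50) and Ednrb (0.19). Pmp22, the gene called lower, was not called without any 1 of the KO libraries (-0.27 to -0.17, adjusted p-values 0.0568 to 0.186 by edgeR). Its value was -0.14 without WT replicate 2 (0.0407). The neural crest genes Foxd3 and Pax3 were too low to test, and the list's summed level was 509 to 522 CPM in WT and 519 to 549 CPM in KO. Most of that sum came from Ednrb (282.5 CPM in WT, 322.3 CPM in KO) and Pmp22 (150.8 and 128.4 CPM), which moved in opposite directions. Radial glia and astrocyte genes, which share Olig1 and Olig2 with the lineage, had 3 of 15 called higher (5 without WT replicate 2) and 4 lower (46.7%). Their median was 0.027, and their sum was 12000 to 12410 CPM in WT and 12780 to 13320 CPM in KO. The largest part of that sum was Vim, which was not called (6270 CPM in WT, 6846 CPM in KO). Aldh1l1, Fabp7 and Nes were the genes called higher, and Gfap, Aldoc, S100b and Gjb6 those called lower. Of the ventral and regional patterning genes, 2 of 10 tested were called higher (4 without WT replicate 2) and 2 lower (1 without KO replicate 1), 40% in all. The ventral factor gene Nkx2-1 was not called (3.25 ± 1.14 CPM in WT, 4.54 ± 0.861 CPM in KO). Of the neuronal genes, 0 of 10 were called higher and 2 lower (20%, against 26.9% of all tested genes). The part of these cells in the members' levels was not tested.

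**Figure D4:**
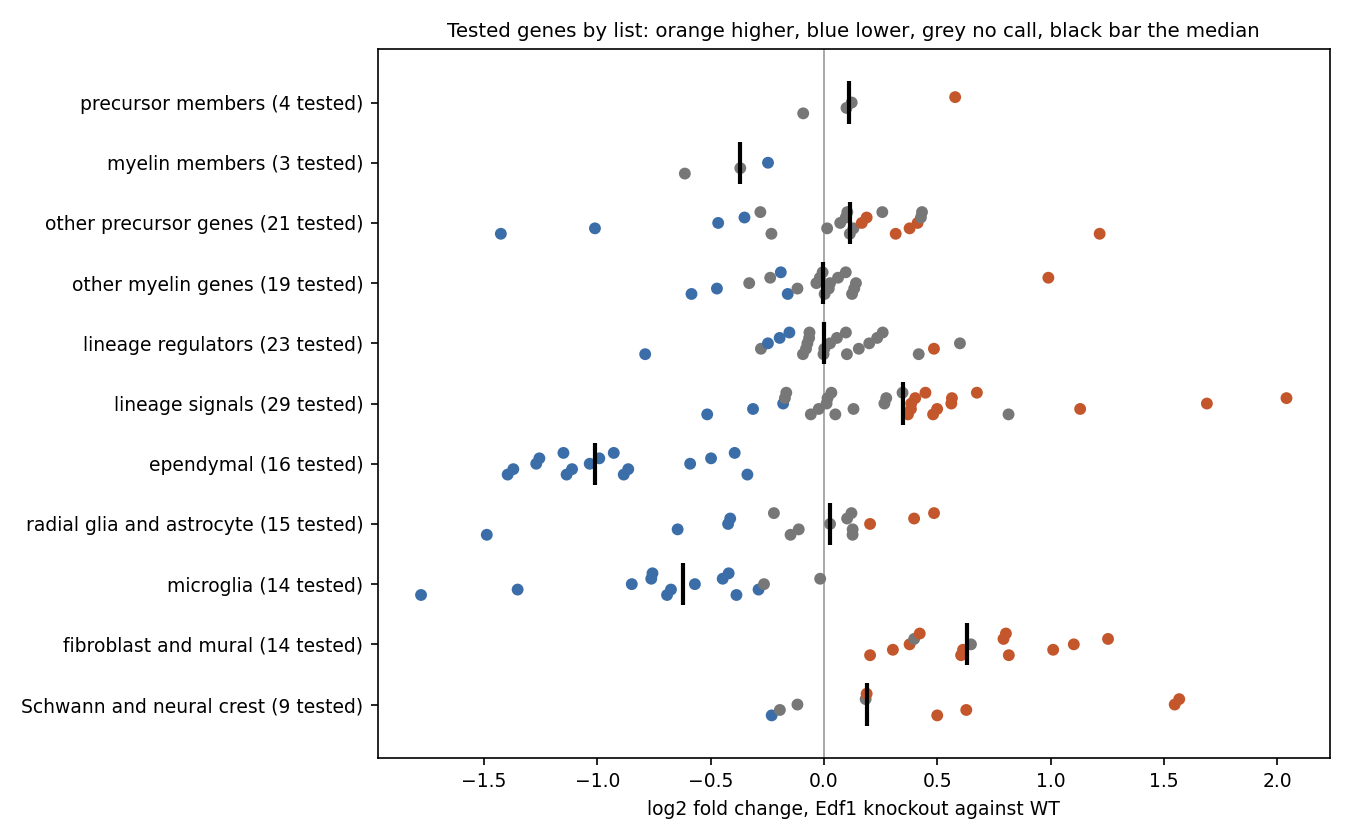
Log2 fold change of every tested gene in each list shown, Edf1 knockout against WT, with the list's median as a black bar. The neuronal and patterning lists are not drawn. The lists of other myelin genes and of regulators centre near 0 (medians -0.0058 and 0.0016). The 3 tested myelin members have a median of -0.37. The ependymal and fibroblast lists lie to the left and right of 0 (medians -1.01 and 0.63).

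The genes whose levels followed the members most closely across the 6 libraries were listed as a description. For the precursor mean these were Plekha1, Syde2 and Fzd7 (Pearson r 0.987, 0.971 and 0.961), and for the myelin mean Zfp740, Angel2 and Fam184a (0.981, 0.980 and 0.974), out of 11817 genes with a mean of at least 5 CPM. With 6 libraries from 2 genotypes that differ in depth, r was above 0.9 for 37 and 48 genes, and none of the 6 named genes was called between the genotypes.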

How the data were processed

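The deposited file holds whole-number read counts per gene symbol for 6 libraries, with no normalization, per the file headers and the values. FastQC 0.11.2, cutadapt 1.11, HISAT2 2.1.0 and the build GRCm38 are named, per the submitters' processing notes. The counting program, annotation, strand setting and treatment of multi-mapped reads are not given in the sources used here. MGI mRNA libraries were made from TRIzol-extracted RNA, per the labels' protocols. No read count row lacked a gene name, 0 columns were unused, and 4913 genes had no count.

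Counts were analysed in R 4.3.3 with edgeR 4.0.16: filterByExpr with its default minimum of 10 counts left 14243 genes, TMM factors (0.985 to 1.01) scaled the libraries, and the quasi-likelihood test compared KO with WT on all 6 libraries without covariates. P-values were Benjamini-Hochberg adjusted over all tested genes, with a threshold of 0.05, and adjusted p-values in the text come from this fit unless another tool is named. Where 2 numbers in parentheses follow a left-out library, they are the log2 fold change and the adjusted p-value. The SE is the fold change over the square root of F, and intervals use the fit's degrees of freedom. CPM used TMM-scaled totals, and log2 CPM a prior count of 2. Intervals and the limit of 3 counts cover counting error or the spread between these libraries only. Positions and exon lengths came from GENCODE M21 (GRCm38), and upstream windows from RefSeq. At most 1.45% of a member's 31-base words also occurred in another gene's transcripts.

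The members and lists were chosen with earlier results of these data known. The genes named are all members, Cspg4, Gpr17 and Myrf (a further gene of this rule is not reported here), up to 3 called genes with the largest rise and fall in each lineage list, the 3 genes most alike to each mean, and others named after their values were seen (Edf1, Foxj1, Pdgfa, Shh, Ptch1, Dnajc7, Nkx2-1 and marker genes). Alternatives were DESeq2 size factors, library size alone, no low-count filter, a mean of at least 50 counts, DESeq2 1.42.0, limma 3.58.1 voom, the replicate number as a block, and each library left out. The edgeR fit was tested on simulated counts of 14243 genes, with the same variability setting for every gene and 200 genes changed 2-fold. It recovered 96% of them, and it called 0 genes when none was changed. Of its calls, 9.43% were false, a share above the threshold of 0.05. Nkx2-2 (1.49-fold) and Cnp (0.843-fold) changed by less than 2-fold, so the 96% does not describe changes of their size.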

Additional observations from a re-analysis of the deposited data

How the results depend on the processing

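The calls of Nkx2-2 and Cnp held in all 13 alternatives, and the numbers of members called higher and lower stayed at 1 and 1 in each. Olig1, Mbp and Mag kept their direction and were called in none, and Mag could not be fitted where a mean of at least 50 counts was required. Leaving out 1 library moved the log2 fold change of Olig1 from 0.085 to 0.16, of Olig2 from -0.019 to 0.19, of Pdgfra from -0.14 to 0.010, of Mbp from -0.58 to -0.028, of Mag from -1.02 to -0.36 and of the microglia gene Sall1 from -0.035 to 0.0074. The direction turned for Olig2 (-0.019 without KO replicate 2), Pdgfra (0.010 without KO replicate 3) and Sall1 (0.0074 without WT replicate 3), none of which was called in any fit. The cause was not tested. Changed genes numbered 3833 and ran from 2658 to 4340 as each library was left out, and library size alone moved the share called lower from 52.9% to 49.7%. Over the 4 lineage lists, 21 genes were called higher and 15 lower, and these counts ran from 14 to 24 and from 8 to 17 as each library was left out, with 8 called lower without KO replicate 1 and 9 without KO replicate 3. The KO minus WT difference in the myelin mean minus the precursor mean, reported as -0.23, ran from -0.45 to -0.030 over its 10 alternatives, moves of less than the pooled SD between replicates (0.27) but, at the extremes, more than the SD of the WT libraries (0.17). With the replicate number as a block, 4065 genes were called, which changed no member's call, while Apod lost its call (0.87, adjusted p-value 0.0517 by edgeR). The deviations of same-numbered WT and KO libraries from their genotype's mean correlated at 0.069, 0.060 and 0.037 across genes. Those of differently numbered libraries correlated at -0.072 to 0.029. The same-numbered values were thus the higher ones, though small, and a weak pairing is not excluded. The main fit assumed no pairing. Depth limits Sox10 and Mog, for which no difference could be detected, and Gpr17 and Myrf, which were not tested.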
